A study of Homo sapiens with 3 samples.

Results

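The genes described here are the UDP-glucuronosyltransferases (UGT) and cytosolic sulfotransferases (SULT), which attach sugars or sulfonate groups to drugs, hormones, bilirubin and lipids. They were found by their symbols, as every row on a main chromosome whose name is that of a UGT1, UGT2, UGT3 or UGT8 gene or of a SULT gene. In all, 35 rows matched among 39320, of which 22 are UGT and 13 are SULT genes. The 3 libraries are labelled as replicates of HepG2, a line derived from a human liver tumour, of wild-type genotype and with no treatment named. There was no second condition, so the data answer how much RNA each enzyme gene had in these libraries, and no change could be tested. Nothing in the labels says whether the replicates were separate cultures, so the spread given is that between libraries and may be technical.

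Conjugation makes small molecules more soluble in water and easier to excrete. UGT enzymes sit in the endoplasmic reticulum and mostly use UDP-glucuronic acid as the donor, while SULT enzymes are soluble and use PAPS, the activated form of sulfate. In the human liver, UGT1A1 clears bilirubin, several UGT2B enzymes act on steroids and bile acids, SULT1A1 acts on phenols and SULT2A1 on dehydroepiandrosterone and bile acids. The gene families differ in layout. The UGT1A genes share their last exons and differ in the first, and SULT1A3 and SULT1A4 are copies made by a duplication on chromosome 16.

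Hepatocyte marker genes were at or near 0 in the tables. Of 10 such markers, 10 were below 1 TPM in every library and 7 were listed at 0 in all 3, among them ALB, APOA1, APOB and SERPINA1. TTR was above 0 in all 3 libraries and TF and AFP in 2 each, and the summed level of the list was between 0.0571 and 0.244 TPM. TPM gives a gene's share of all transcripts after scaling for length and has the same sum in every library. Of 6 mesenchymal markers, 3 reached 1 TPM in every library, with a summed level between 695 and 785 TPM that was mostly VIM, and SPARC was listed at 0. Of 5 epithelial markers, 2 did, KRT8 and KRT18, and the list summed to between 4517 and 4772 TPM, mostly from these 2. CDH1 had 1.04, 0.980 and 1.05 TPM, KRT19 was below 1 TPM in every library, and EPCAM had 0, 0 and 0.0901 TPM. None of 4 intestinal markers reached 1 TPM, with sums from 0.906 to 1.29 TPM and FABP1 at 0, and of 3 blood markers only CD68 did, with sums from 8.997 to 11.0 TPM and PTPRC at 0. The values below therefore hold for libraries labelled HepG2, and the part of the low hepatocyte markers in them was not tested. No other HepG2 data were compared, so whether this profile is usual for the line was not tested. The low or 0 values of liver UGT and SULT genes below should not be taken as typical of HepG2 cells or of liver.

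The coding sequences show which of the expressed SULT rows can be told apart by reads. In GENCODE v44 transcripts (GRCh38), the 888 coding bases of SULT1A1 differ from those of SULT1A2 at 28 positions and from those of SULT1A3 at 49, and the coding bases of SULT1A3 and SULT1A4 differ at 0. The 60 bases with the most differences between SULT1A1 and SULT1A3, coding bases 208 to 267 counted from the start codon, lie within a single exon in each gene. They are shown 5′ to 3′ with capitals where a base differs from SULT1A1.
SULT1A1 (chr16:28608485-28608544, minus strand): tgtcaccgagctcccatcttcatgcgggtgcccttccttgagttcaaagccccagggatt
SULT1A2 (chr16:28595557-28595616, minus strand): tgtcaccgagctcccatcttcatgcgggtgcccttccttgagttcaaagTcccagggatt
SULT1A3 (chr16:30201040-30201099, plus strand): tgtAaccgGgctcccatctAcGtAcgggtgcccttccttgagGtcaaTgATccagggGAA
SULT1A4 (chr16:29461697-29461756, plus strand): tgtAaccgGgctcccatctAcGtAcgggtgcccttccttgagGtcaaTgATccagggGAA
SULT1A2 differs from SULT1A1 at 1 base of this stretch, and SULT1A3 and SULT1A4 differ from it at the same 12.

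The copies are also alike outside the coding part. The RefSeq promoters (GRCh38.p14) of SULT1A3 (chr16:30199005-30199304, plus strand) and SULT1A4 (chr16:29459663-29459962, plus strand), which run from 250 bases before the start to 50 bases after it, differ at 0 of 300 bases. This shared promoter is shown because the 2 rows that carry it made up most of the SULT level, and it holds 0 CpG dinucleotides.
SULT1A3 and SULT1A4 promoter: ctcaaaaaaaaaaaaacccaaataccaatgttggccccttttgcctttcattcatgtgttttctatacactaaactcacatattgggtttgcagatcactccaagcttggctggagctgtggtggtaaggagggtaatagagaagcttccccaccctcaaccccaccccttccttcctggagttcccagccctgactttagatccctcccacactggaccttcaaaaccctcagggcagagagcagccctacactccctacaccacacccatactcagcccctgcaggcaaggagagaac
Of the 1206 windows of 150 bases in the SULT1A3 transcript, a read length in this study, 99.1% occur unchanged in an annotated SULT1A4 transcript and 3.32% in a SULT1A1 transcript. Reads of SULT1A3 and SULT1A4 can thus hardly be told apart, and their sum is a firmer value than either row.

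For the UGT1A genes, the joined exons 1 and 2 are shown for UGT1A6, the member of that locus with a value above 0, and for UGT1A4 and UGT1A9, which were listed at 0. The last 30 bases of exon 1 are in lower case and the first 30 of exon 2 (chr2:233767034-233767063) in capitals.
UGT1A6 (exon 1 part chr2:233693836-233693865, plus strand): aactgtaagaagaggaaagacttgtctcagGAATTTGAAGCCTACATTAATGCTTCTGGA
UGT1A4 (exon 1 part chr2:233719658-233719687, plus strand): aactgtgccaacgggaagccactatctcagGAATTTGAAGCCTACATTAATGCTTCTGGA
UGT1A9 (exon 1 part chr2:233672760-233672789, plus strand): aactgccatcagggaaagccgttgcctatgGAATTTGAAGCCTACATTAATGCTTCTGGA
The capital part is the same in each, because the 9 UGT1A transcripts use the same second exon, and the exons after the first add 1479 bases to every transcript. Between 57.9% and 70.7% of the 150-base windows of a UGT1A transcript occur in another UGT1A transcript. A read from the shared exons cannot be given to 1 enzyme, so the level is also given for the rows as a single locus. The counts of genes below still take each of the 9 rows singly.

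Of the 35 genes, 5 reached 1 TPM in every library, and all 5 were SULT genes. They were SULT1A1, SULT1A4, SULT1A3, SULT4A1 and SULT1A2. None of the 22 UGT genes reached 1 TPM in any library. For comparison, 33.8% of all rows and 59.5% of rows with a protein-coding RefSeq symbol reached 1 TPM in every library, against 14.3% of the 35 genes, 38.5% of the SULT and 0% of the UGT genes. All 35 carry a protein-coding symbol, so the second share is the closer background. A further 6 genes were above 0 in some library and below 1 TPM in all, and 24 were listed at 0 in all 3 libraries, or 68.6%, against 20.0% of protein-coding rows. These 24 include 8 rows of the UGT1A locus, counted singly though most of their windows are shared. With the UGT1A rows summed as 1 locus, the number at 1 TPM or more was still 5. Of the 24, 7 or 29.2% stood in a block of zeros at the end of every table. The block held 6.66% of all protein-coding rows in every table, or 33.3% of the 3744 that were listed at 0 in all 3 libraries, so the share of the 24 was near the background. Outside the block, rows at 0 in a library reached up to 664 TPM in another, so such a 0 need not mean that RNA was absent. The 8 UGT1A rows at 0 and SULT2A1 were never in the block.

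**Figure D1:**
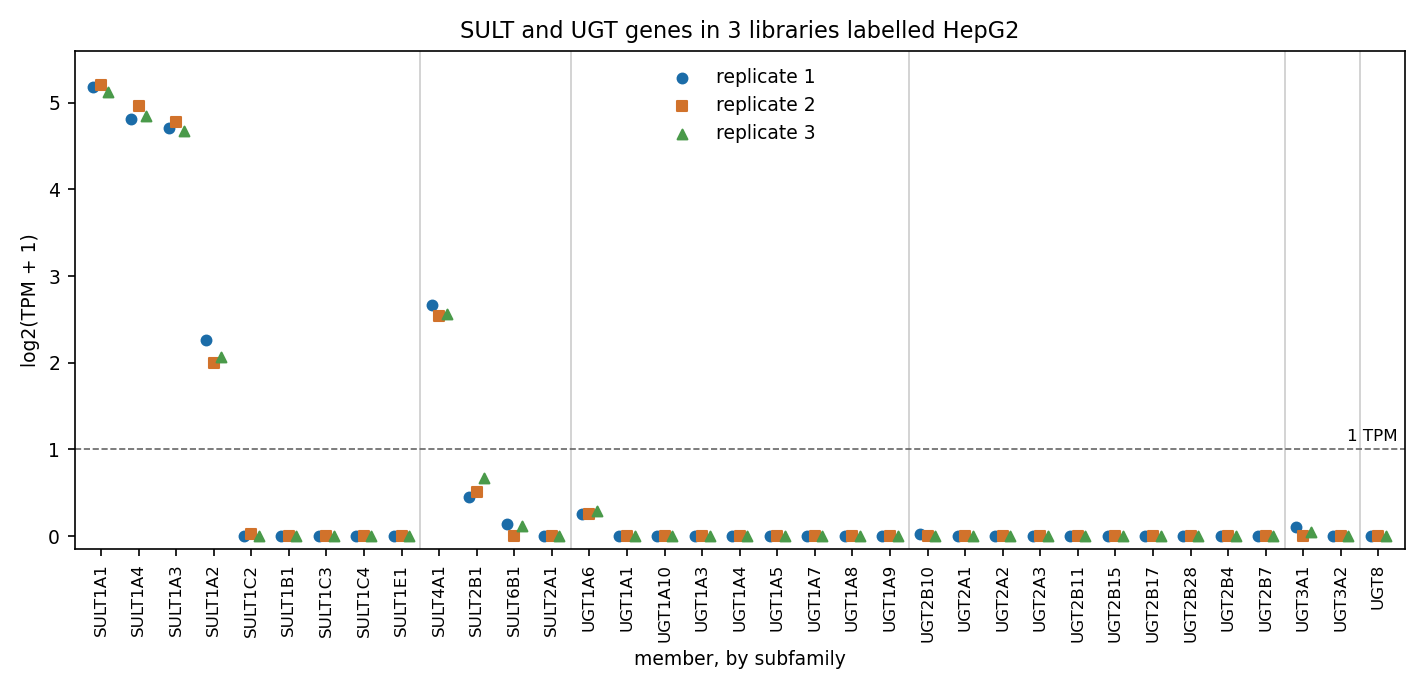
Level of the 35 SULT and UGT genes as log2(TPM + 1) on the y axis, by gene and subfamily on the x axis, with 1 point for each library and a dashed line at 1 TPM. The 5 genes above the line in all 3 libraries are SULT1A1, SULT1A4, SULT1A3, SULT4A1 and SULT1A2, and all UGT genes lie near 0.

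SULT1A1, which sulfonates phenols such as acetaminophen, had the highest TPM of a single row, though not the highest coverage. Its level was 35.3, 35.8 and 33.8 TPM in replicates 1, 2 and 3, with a mean of 34.97 ± 1.04 TPM (SD, n = 3). The gene spans chromosome 16 from 28605587 to 28623586 (minus strand). Among the 13753 rows that averaged 1 TPM or more, 70.7% were lower than SULT1A1. In bulk RNA, fewer cells with a transcript and less of it per cell cannot be told apart.

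SULT1A4 and SULT1A3, which encode the sulfotransferase of dopamine and other catecholamines, came next. SULT1A4 (chromosome 16, 29459886 to 29464980, plus strand) had 27.2, 30.1 and 27.7 TPM in replicates 1, 2 and 3, and a mean of 28.3 ± 1.57 TPM (SD, n = 3). SULT1A3 (chromosome 16, 30199228 to 30204329, plus strand) had 25.2, 26.5 and 24.5 TPM, and a mean of 25.4 ± 0.998 TPM (SD, n = 3). Their sum was 52.4, 56.6 and 52.3 TPM, or 53.8 ± 2.48 TPM (SD, n = 3), and was above the level of SULT1A1 in each library. The sum made up 55.1% ± 1.20 (SD, n = 3) of the TPM of all SULT rows, and SULT1A1 made up 35.8% ± 0.380 (SD, n = 3).

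The tables also list read-through genes, annotated transcripts that join SLX1A to SULT1A3 and SLX1B to SULT1A4 and contain SULT1A exons. SLX1A-SULT1A3 had 15.3, 15.4 and 18.2 TPM and SLX1B-SULT1A4 had 13.5, 11.4 and 15.02 TPM in replicates 1, 2 and 3. Both were highest in replicate 3, where SULT1A3 was lowest, while SULT1A4 was lowest in replicate 1. With these rows added, the SULT1A3, SULT1A4 and read-through rows summed to 83.4 ± 2.19 TPM (SD, n = 3). The joined transcripts also hold SLX1 sequence, so this sum need not all be SULT1A sequence. How the RNA divides between the single and the joined genes cannot be told apart from these values.

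SULT4A1, a sulfotransferase best known from the brain for which no substrate is firmly established, was the only expressed SULT outside the SULT1A group. It had 5.37, 4.80 and 4.89 TPM, with a mean of 5.02 ± 0.307 TPM (SD, n = 3), and shares no 150-base window with another gene. SULT1A2, a close relative of SULT1A1, had 3.79, 3.00 and 3.20 TPM, with a mean of 3.33 ± 0.407 TPM (SD, n = 3). It had the largest relative spread of the 5, with a coefficient of variation of 12.2%, against 2.98% for SULT1A1.

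The order of the 5 genes was the same in every library. Each gene was compared with the next lower by the log2 ratio of TPM within each library, with a pseudocount of 1. The ratio was 0.29 ± 0.06 for SULT1A1 over SULT1A4, 0.15 ± 0.04 for SULT1A4 over SULT1A3, 2.14 ± 0.10 for SULT1A3 over SULT4A1 and 0.48 ± 0.06 for SULT4A1 over SULT1A2 (SD, n = 3). In each of the 4 pairs the higher gene was higher in 3 of 3 libraries and the values of the genes did not overlap. The pairs and their direction were taken from the mean TPM of these same libraries, so the comparison only describes the order. The exact permutation test over signs (two-sided) returned p = 0.25 in each pair, and 0.25 after Benjamini-Hochberg adjustment over 4 pairs, and 3 libraries cannot give a smaller p. SULT1A4 and SULT1A3 share nearly all windows, and how reads were divided between them is not given in the sources used here.

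The order of the first 3 depended on the measure. Coverage, the mean number of reads over each base of the gene, is not scaled for library size. SULT1A1 had a coverage of 128, 134 and 107, below that of SULT1A4 at 170, 185 and 153 and of SULT1A3 at 158, 163 and 135 in replicates 1, 2 and 3. The log2 ratio of SULT1A1 to SULT1A4 was then -0.46. SULT4A1 was likewise below SULT1A2 by coverage, at 9.65, 8.47 and 7.67 against 15.5, 13.9 and 13.8, with a log2 ratio of -0.68. Coverage per FPKM, relative to the highest ratio in the library, was 1.00 for SULT1A3 and SULT1A4, between 0.577 and 0.608 for SULT1A1, between 0.652 and 0.781 for SULT1A2 and between 0.285 and 0.288 for SULT4A1. FPKM is the deposited value scaled for length and library from which TPM follows, and a row with a lower ratio has more TPM for each unit of coverage.

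**Figure D2:**
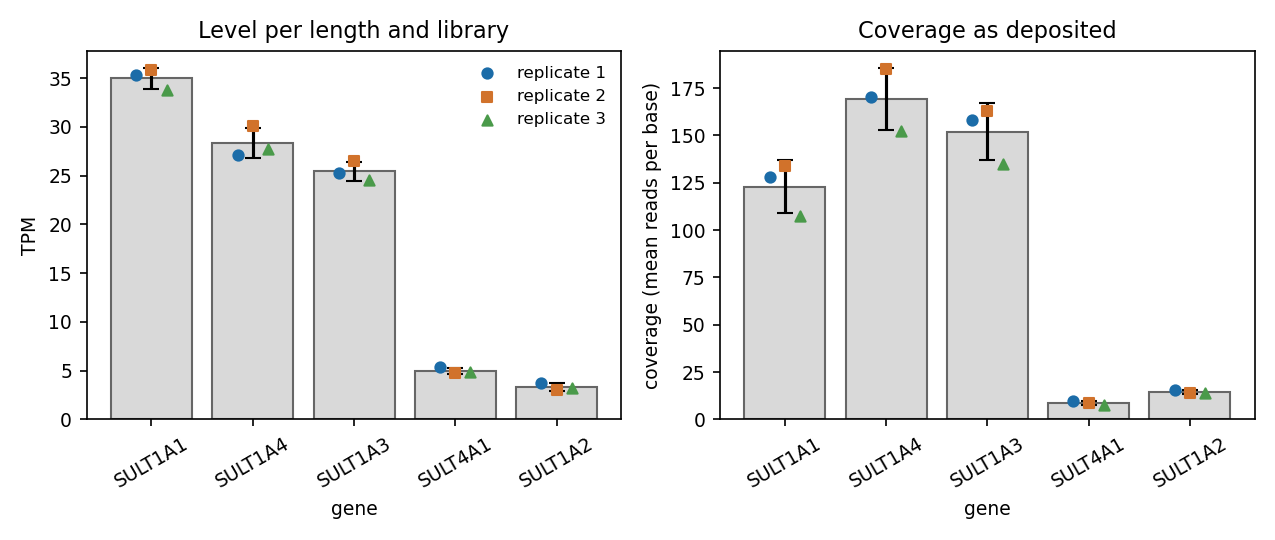
TPM (left) and coverage in mean reads per base (right) of the 5 SULT genes above 1 TPM, with bars at the mean of 3 libraries, error bars of 1 SD and 1 point for each library. SULT1A1 is highest by TPM, with a mean of 34.97 TPM, and lies below SULT1A4 and SULT1A3 by coverage.

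The other SULT genes were low or listed at 0. SULT2B1, which sulfonates cholesterol and pregnenolone, had 0.368, 0.421 and 0.591 TPM, with a coverage of 2.06, 2.28 and 2.89. SULT6B1 had 0.105 TPM in replicate 1 and 0.0886 TPM in replicate 3 and was listed at 0 in replicate 2. SULT1C2 was above 0 only in replicate 2, at 0.0162 TPM and a coverage of 0.0970. SULT2A1, the liver sulfotransferase of dehydroepiandrosterone, and SULT1E1, the estrogen sulfotransferase, were listed at 0 in all 3 libraries, as were SULT1B1, which acts on thyroid hormones, SULT1C3 and SULT1C4. These genes lie on chromosomes 2, 4 and 19, away from the SULT1A genes.

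Of the UGT1A locus (chromosome 2, 233617645 to 233773305, a span of 155661 bp), only the row of UGT1A6 had a value. UGT1A6, an enzyme for small planar phenols and serotonin, had 0.198, 0.191 and 0.223 TPM, with a mean of 0.204 ± 0.0168 TPM (SD, n = 3). Its coverage was 1.17, 1.10 and 1.16 reads per base. The rows of UGT1A1, UGT1A3, UGT1A4, UGT1A5, UGT1A7, UGT1A8, UGT1A9 and UGT1A10 were listed at 0 in all 3 libraries. The rows of the locus summed to the value of UGT1A6. With most windows shared among these rows, neither the level of the locus nor the first exon behind it is fixed by that value.

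The UGT2 genes, which include the main steroid, bile acid and opioid conjugating enzymes of the liver, were listed at 0 but for a single value. UGT2B10 had 0.0156 TPM and a coverage of 0.0977 in replicate 1 and was listed at 0 in the other libraries. UGT2B4, UGT2B7, UGT2B11, UGT2B15, UGT2B17, UGT2B28, UGT2A1, UGT2A2 and UGT2A3 were listed at 0 in all 3. Together with SULT1B1 and SULT1E1, the UGT2 genes form a run on chromosome 4 from 68537184 to 69860151, a span of 1322968 bp. None of its 12 genes, and none of the 2 other rows that lie wholly within it, reached 1 TPM.

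UGT3 and UGT8 use other sugars than glucuronic acid. UGT3A1, which transfers N-acetylglucosamine, had 0.0772 TPM in replicate 1 and 0.0362 TPM in replicate 3 and was listed at 0 in replicate 2. UGT3A2 was listed at 0 in all 3 libraries. So was UGT8, which adds galactose to ceramide in the first step of galactosylceramide and sulfatide synthesis. A coverage below 1, as for UGT3A1 and UGT2B10, means less than 1 read per base on average.

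Summed over their rows, the SULT genes had 97.3, 101 and 94.9 TPM in replicates 1, 2 and 3, or 97.6 ± 2.92 TPM (SD, n = 3). The UGT genes summed to 0.291, 0.191 and 0.259 TPM, or 0.247 ± 0.0513 TPM (SD, n = 3). The log2 ratio of the sums, each with a pseudocount of 1, was 6.31 ± 0.10 (SD, n = 3) and favoured SULT in 3 of 3 libraries, with p = 0.25 (two-sided exact permutation over signs), the smallest p possible. The pseudocount keeps this ratio down, and with 0.1 it was 8.15. Of the SULT sum, 94.3% ± 0.433 (SD, n = 3) came from the 4 SULT1A rows.

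Replicate spread was small for the genes with enough signal to judge it. Among the 3 genes that averaged 10 TPM or more, log2(TPM + 1) ranged over more than 1 in 0, against 0.273% of all 8419 such rows. The ranges were 0.08 for SULT1A1, 0.14 for SULT1A4 and 0.11 for SULT1A3. With 3 genes, this says only that none of them stood apart between libraries.

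**Figure D3:**
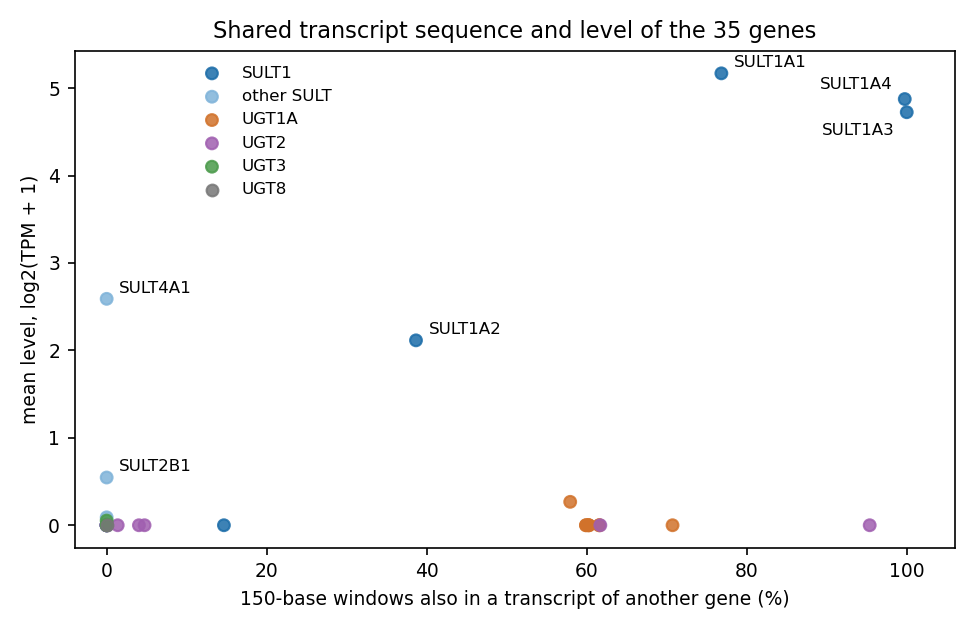
Share of the 150-base windows of each gene's reference transcript that also occur in a transcript of another gene (x axis, %) against its mean level as log2(TPM + 1) over 3 libraries (y axis), with 1 point for each of the 35 genes, coloured by subfamily. SULT1A3 and SULT1A4 lie near 100%, SULT4A1 and SULT2B1 at 0%, and the UGT1A genes between 57.9% and 70.7% near the bottom.

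The highest SULT levels stood in rows with much shared sequence. Shares count windows found in any annotated transcript of another gene, unnamed genes and read-through genes included. The share was 76.8% for SULT1A1, 99.8% for SULT1A4, 100% for SULT1A3 and 38.7% for SULT1A2, the 4 highest shares of the 13 SULT genes, and 0% for SULT4A1. Of the SULT1A1 windows, 2.82% occurred in a SULT1A3 transcript, 2.82% in a SULT1A4 transcript and 0% in a SULT1A2 transcript. SULT1A2 shared 0% with each of the other SULT1A genes, and its whole share was with 1 unnamed gene. Among the genes listed at 0 in all 3 libraries it was 0% for SULT2A1, UGT2B4 and UGT2B7, 60.3% for UGT1A1 and 95.4% for UGT2A2, whose exons overlap those of UGT2A1. The part of read sharing in these levels was not tested.

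Promoters of 28 of the 35 genes were matched in RefSeq (GRCh38.p14), with 32 start sites. Those of SULT1A1, SULT1A2, SULT4A1, UGT1A10, UGT2B4, UGT2B17 and UGT2B28 were not matched. The matched promoters were poor in CpG, with a median of 2.5 CpG dinucleotides in 300 bases and 44.2% GC, against 14 and 58.7% over all 35116 promoters. The letters TATAAA occurred on either strand in 28.1% of them and in 11.5% of all promoters, and GGGCGG, the letters of a GC box, in 18.8% and 45.0%. CCAAT occurred in 43.8% and 34.6%, and GCGTG in 31.2% and 36.5%, with each motif counted on its own. The 3 UGT8 promoters held 17, 18 and 33 CpG dinucleotides, and those of SULT1A3, SULT1A4, UGT2A3, UGT2B7 and UGT2B15 held 0. Promoter content was not tested against level, and the expressed genes SULT1A1, SULT1A2 and SULT4A1 are not among those matched. The genes of a family share ancestry, so these shares are descriptions.

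Most genes of donor supply had RNA at 1 TPM or more. The genes around conjugation were counted in 8 lists with 44 genes in all, of which 36 reached 1 TPM in every library, 7 were below it in every library and 3 of these were listed at 0 in all. This is 81.8% of the listed genes, beside the 59.5% of protein-coding rows given above. The lists were chosen with earlier results of these data known, so this share is only a description.

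UDP-glucuronic acid is made from UDP-glucose by UGDH, after UGP2 has made UDP-glucose. UGP2 had 97.2 ± 2.56 TPM and UGDH 86.8 ± 3.41 TPM (SD, n = 3). SLC35D1, which carries UDP-glucuronic acid into the endoplasmic reticulum, had 8.63 ± 0.980 TPM, and UXS1, which turns UDP-glucuronic acid into UDP-xylose, had 36.4 ± 0.852 TPM (SD, n = 3). All 4 genes of this list were above 1 TPM in every library, while no UGT gene was.

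PAPS is made by PAPSS1 and PAPSS2, which had 33.9 ± 0.956 and 25.5 ± 1.20 TPM (SD, n = 3). SLC35B2 and SLC35B3 carry PAPS into the Golgi, away from the soluble SULT enzymes, and had 39.0 ± 0.793 and 7.70 ± 0.823 TPM (SD, n = 3). The phosphatases BPNT1 and BPNT2 remove the product PAP, and had 40.6 ± 3.10 and 33.8 ± 3.10 TPM (SD, n = 3), BPNT2 under its older symbol IMPAD1 in the tables. Of the sulfate carriers, SLC26A2 had 5.51 ± 0.425 TPM and SLC26A1 had 0.558 ± 0.0946 TPM (SD, n = 3), so 7 of the 8 genes of this list reached 1 TPM. The synthases were thus at a level like that of SULT1A1 and SULT1A3.

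Of the genes for enzymes that remove conjugates, 5 of 5 were above 1 TPM. GUSB, the lysosomal glucuronidase, had 36.8 ± 1.76 TPM and STS, the steroid sulfatase, had 19.1 ± 1.58 TPM (SD, n = 3). SUMF1, which activates sulfatases, had 18.3 ± 0.547 TPM, and the lysosomal sulfatases ARSB and ARSA had 10.7 ± 0.725 and 6.80 ± 0.875 TPM (SD, n = 3). GUSB was therefore above the sum of all UGT rows in every library.

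Around UGT8, the ceramide and sulfatide genes were uneven. CERS2, which makes very long chain ceramides, had 169 ± 9.32 TPM, FA2H, which hydroxylates their fatty acids, had 20.8 ± 0.524 TPM and PSAP, the precursor of the saposins, had 398 ± 6.44 TPM (SD, n = 3). GAL3ST1, which sulfonates galactosylceramide after UGT8, had 0.247, 0 and 0.187 TPM in replicates 1, 2 and 3. GALC, which removes the galactose again, was listed at 0 in all 3 libraries, so 4 of the 6 genes of this list reached 1 TPM, with UGT8, GAL3ST1 and GALC below it.

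Heme breakdown, the source of the bilirubin that UGT1A1 conjugates, had 4 of 4 genes above 10 TPM. BLVRB was highest of these at 305 ± 5.59 TPM and BLVRA lowest at 40.1 ± 0.605 TPM (SD, n = 3), while UGT1A1 was listed at 0. Of 5 conjugate exporters, 4 reached 1 TPM in every library, from ABCC1 at 51.3 ± 2.45 TPM down to ABCC3 at 6.64 ± 0.505 TPM (SD, n = 3). ABCC2, the canalicular exporter of bilirubin glucuronides, had 44.02 ± 2.87 TPM (SD, n = 3), and ABCG2 had 1.01, 0.982 and 0.664 TPM.

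Of 8 regulators known to act on conjugating enzyme genes, 6 reached 1 TPM, with RXRA highest at 70.4 ± 1.96 TPM (SD, n = 3). AHR, the dioxin receptor known to induce UGT1A6, had 12.3 ± 1.30 TPM (SD, n = 3). The drug sensing receptors NR1I2 and NR1I3 did not reach it, with 0.0528, 0 and 0 TPM for NR1I2 and 0.207, 0.351 and 0.230 TPM for NR1I3. Of 5 other transferases of drug conjugation, 3 reached 1 TPM, with TPMT, which methylates thiopurine drugs, highest at 14.4 ± 1.14 TPM (SD, n = 3), and the acetyltransferase NAT2 and the glycine transferase GLYAT were listed at 0.

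**Figure D4:**
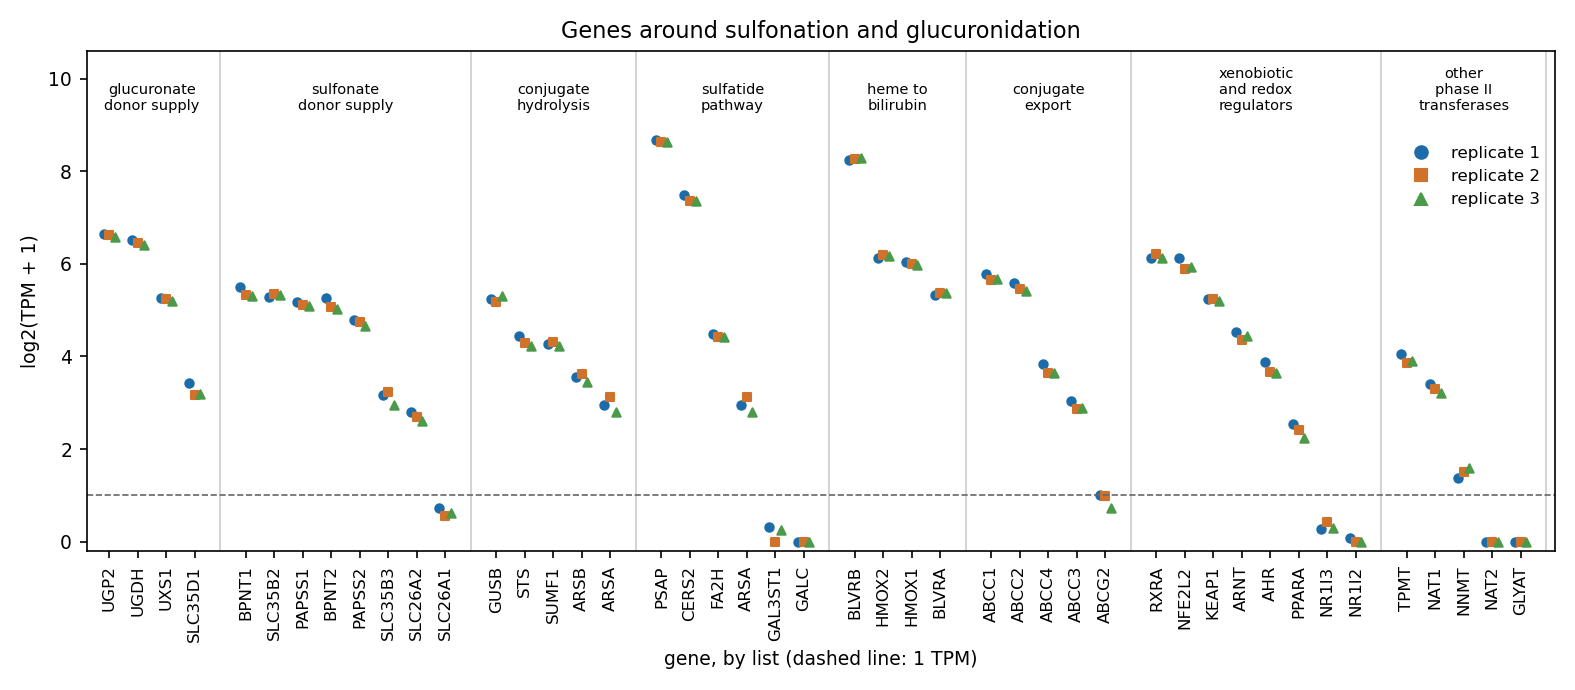
Level of the 44 genes of the 8 lists as log2(TPM + 1) on the y axis, by gene and list on the x axis, with 1 point for each library and a dashed line at 1 TPM (ARSA is in 2 lists). All genes of glucuronate donor supply, conjugate hydrolysis and heme to bilirubin lie above the line, and GALC, NAT2 and GLYAT lie at 0.

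Beside the CYP1 to CYP3 and glutathione S-transferase families, the ones taken for comparison, the UGT genes had no member above the limit. Of the 22 UGT rows, 9 belong to the UGT1A locus and share most of their windows, so they are not separate counts. Of protein-coding rows, 59.5% reached 1 TPM in every library. Of 24 rows of the CYP1 to CYP3 families, oxidases of the first phase of drug metabolism, 7 or 29.2% reached 1 TPM in every library, with CYP2S1 highest at 16.5 ± 0.750 TPM (SD, n = 3). Of 19 glutathione S-transferase rows, 10 or 52.6% did, with GSTP1 highest at 1844 ± 49.3 TPM (SD, n = 3). The summed level was 42.6 ± 0.770 TPM for CYP1 to CYP3 and 2339 ± 52.3 TPM for glutathione S-transferases (SD, n = 3), so the SULT sum lay between them. The difference between families was not tested.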

How the data were processed

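RNA from 3 libraries labelled as wild-type HepG2 was sequenced by the authors as 150 bp paired-end reads. The submitters' processing notes list FastQC 0.11.8, Trim Galore 0.6.2, STAR 2.6.1a, StringTie and the GRCh38 build. The annotation and strand setting are not given in the sources used here. The authors deposited 1 table per library, with coverage (not scaled for library size), FPKM (scaled for length and library) and TPM (with the same sum in every library). The tables hold no counts, so depth is unknown and no counting interval is given. Relative depth, read from the largest coverage per FPKM, was 13.3, 12.8 and 11.5 in replicates 1, 2 and 3. Mitochondrially encoded rows took between 19.9% and 20.2% of TPM in each library, which lowers the TPM of all other rows alike. Most of this was the single row TRNC, with between 16.9% and 17.2% of TPM.

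Rows were joined by symbol, strand and coordinates (43389 rows), and the 39320 on main chromosomes and the mitochondrial reference were used. The 3 rows of member genes on alternate references, all listed at 0, were left out. TPM was used as deposited, without a filter on low values. A gene counted as expressed at 1 TPM or more in every library. Ratios within a library used log2(TPM + 1), with two-sided exact sign-flip permutation tests over 3 libraries. The range calculation was tested on simulated data. Shared 150-base windows were searched in 252835 GENCODE v44 transcripts, using the canonical transcript of each of the 35 genes. Protein-coding symbols and promoters were taken from RefSeq GRCh38.p14.

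The 35 genes and all gene lists were chosen with earlier results of these data known. The alternatives were other limits and pseudocounts, coverage in place of TPM, scaling without mitochondrially encoded genes, median-of-ratios scaling, other treatments of shared rows and leaving out each replicate. All 35 genes are named, with values in every library for those above 0, and so are all genes of the donor supply, hydrolysis and sulfatide lists. Of the other lists the highest, the lowest and those below 1 TPM are named, and ABCC2, ABCC3 and AHR were added after their values were seen. A gene of the list of other transferases is not reported here and was left out of its counts. Calculations used Python 3.11.15, numpy 2.4.6, pandas 2.3.3 and matplotlib 3.10.9.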

Additional observations from a re-analysis of the deposited data

How the results depend on the processing

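Of 61 values under alternative settings, 54 were taken as unchanged. This required the same direction for a ratio, a change below 1 SD for a sum and at most 1.5 times for a count. The 54 include every value from leaving out a replicate. Many of the 54 could not have come out otherwise. A ratio that is positive in every library keeps its direction under another pseudocount, another scaling or without a replicate. A range cannot widen when a replicate is left out. The number 54 is therefore no measure of robustness. The 54 also include the values with only the highest UGT1A row, which equal the main values because the other 8 rows were at 0. Within the 54, the number of genes in the 8 lists at the limit changed from 36 to 27 with a limit of 10 TPM. The number of genes at 1 TPM or more changed from 5 to 3 with a limit of 10 TPM, where SULT4A1 and SULT1A2 fell away, and was 7 with a limit of 0.1 TPM, where SULT2B1 and UGT1A6 joined. The SULT sum changed from 97.6 to 122 TPM, and the UGT sum from 0.247 to 0.309 TPM, when mitochondrially encoded genes were left out of the scaling, which raises all other genes. The SULT sum was 127 TPM with the read-through rows added and 43.9 TPM without SULT1A3 and SULT1A4. By coverage the log2 ratio reversed to -0.46 for SULT1A1 over SULT1A4 and to -0.68 for SULT4A1 over SULT1A2; the cause was not tested. Leaving out a replicate cannot move a mean of 3 values by 1 SD, so it shows no stability; the SULT sum was then between 96.1 and 99.0 TPM. No paired analysis was possible because there is only 1 condition. Without counts, the precision of genes at 0 or below 1 TPM is unknown.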

Other observations

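The tables write 0 in 2 ways, as a row among the others or in a block of zeros at the end of the table. Of the rows on main chromosomes in that block, between 277 and 316 in a library had a value above 0 in another library, and none of these was over 0.561 TPM. Rows at 0 elsewhere in a table reached up to 664 TPM in another library, so such a 0 can stand for a gene with RNA. UGT8, SULT1E1, UGT2A3, UGT2B7, UGT2B11, UGT2B15 and UGT2B28 were in the block in all 3 libraries. SULT1B1, UGT2A1, UGT2A2, UGT2B4, UGT2B17 and UGT3A2 were in it in 2 libraries. The 8 UGT1A rows at 0, SULT2A1, SULT1C3 and SULT1C4 were never in it. What the block stands for is not given in the sources used here.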
